A study of Mus musculus with 6 samples.

Results

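The genes described here copy nuclear DNA and supply the deoxynucleotides for it: 50 genes chosen by symbol, from the origin recognition complex to maintenance DNA methylation, out of 55487 genes in the table. All 50 symbols were found. They were read in RNA sequencing of mouse bone marrow-derived dendritic cells (BMDC, antigen-presenting cells grown out of marrow in culture). The NanoCa group was given 100 μM NanoCa, which the title of the series describes as a lipid nanoparticle containing calcium, and the Mock group carries the treatment label of no treatment. Both groups are labelled as cells of female mice 4 to 8 weeks old, grown in DMEM with serum, and all share 1 batch date. Strain, genotype beyond that, exposure time and whether libraries came from separate animals or cultures are not given in the labels. Mock samples carry the NanoCa dosing protocol as well, and a column name given for them contains both words, so the groups follow the treatment label alone.

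Before a cell copies its DNA, the origin recognition complex (ORC) marks start sites, and Cdc6 and Cdt1 load the Mcm2-7 helicase there, a step called licensing. Cdc45 and the GINS complex then turn the loaded helicase on, primase and the polymerases copy the strands, and the sliding clamp Pcna tethers the polymerases and many repair and chromatin factors. Most of these genes are switched on late in G1 by E2F factors, so their messenger RNA is usually high in dividing marrow cultures and low in resting or terminally differentiated myeloid cells.

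Each group has 3 columns, but the column of replicate 3 was the mean of the other two multiplied by 1 constant in both groups, so 2 libraries per group carry independent values. Library totals, read from the steps in the FPKM values (reads scaled by gene length and library total), were 23991472 and 22793565 reads in NanoCa and 31131990 and 26975437 reads in Mock. Between libraries, r across genes was 0.997 within both groups and 0.926 to 0.931 between them. Tests used limma on log2(FPKM + 1) over 11116 genes, with Benjamini-Hochberg adjustment over all of them and a threshold of 0.05. Fold changes are NanoCa minus Mock on that scale, where low genes show less change than they have in FPKM. The p-values cover only the spread between 2 libraries of a group, which may be of technical origin. The median of all genes tested was -0.17, and 5520 genes (49.7%) were called lower and 2409 (21.7%) higher. With median-of-ratios scaling these became 3651 lower (32.8%) and 3662 higher (32.9%).

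The labels of the groups were set against markers. Itgax, the CD11c integrin of dendritic cells, had 73.0 and 72.7 FPKM in NanoCa libraries, against 119 and 115 FPKM in Mock libraries, while the dendritic genes Flt3 and Zbtb46 were under 1 FPKM in every library. Xist, the RNA that coats the silenced X chromosome of female cells, had 14413 and 13639 reads in NanoCa libraries, against 1 read in each Mock library, although all are labelled female. Ddx3y, a gene of the Y chromosome, had 14.2 and 12.9 FPKM in NanoCa libraries, against 34.5 and 32.5 FPKM in Mock libraries. The libraries of the 2 groups therefore differ in Xist and in Y-linked RNA as well as in treatment label, and for every difference reported here these cannot be told apart.

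Of the 50 replication genes, all of which passed the filter of a mean of 1 FPKM, 46 were lower in NanoCa, 1 was higher (Pcna) and 3 did not pass the test (Orc4, Cdt1 and Pold2), beside the 49.7% of all genes tested that were called lower, the 21.7% called higher and the 28.7% that did not pass. The median NanoCa level was 49.2% of Mock over the members, with a range of 17.9% to 140%, beside 87.3% over all genes tested. The median log2 fold change was -0.89, or -0.72 relative to the median of all genes. A mean of at most 50% of Mock, past the test, was found for 25 of the 50, beside 9.04% of all genes tested. On the log2(FPKM + 1) scale 18 were lower by at least 2-fold, beside 5.78% of all genes tested. Pcna, the gene that rose, did so by less than 2-fold, and ranked 9909 of 11116 counted from the largest fall. A rise of at least 2-fold, past the test, was found for 5.05% of all genes tested. Both NanoCa libraries lay below both Mock libraries for 47 members, beside 58.9% of all genes, and above them for Pcna and Cdt1, beside 27.4%. With median-of-ratios scaling 42 members were called lower, beside 32.8% of all genes, and 2 higher, Pcna and Cdt1. In bulk RNA, fewer cells that express a gene and less of its RNA per cell cannot be told apart.

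**Figure D1:**
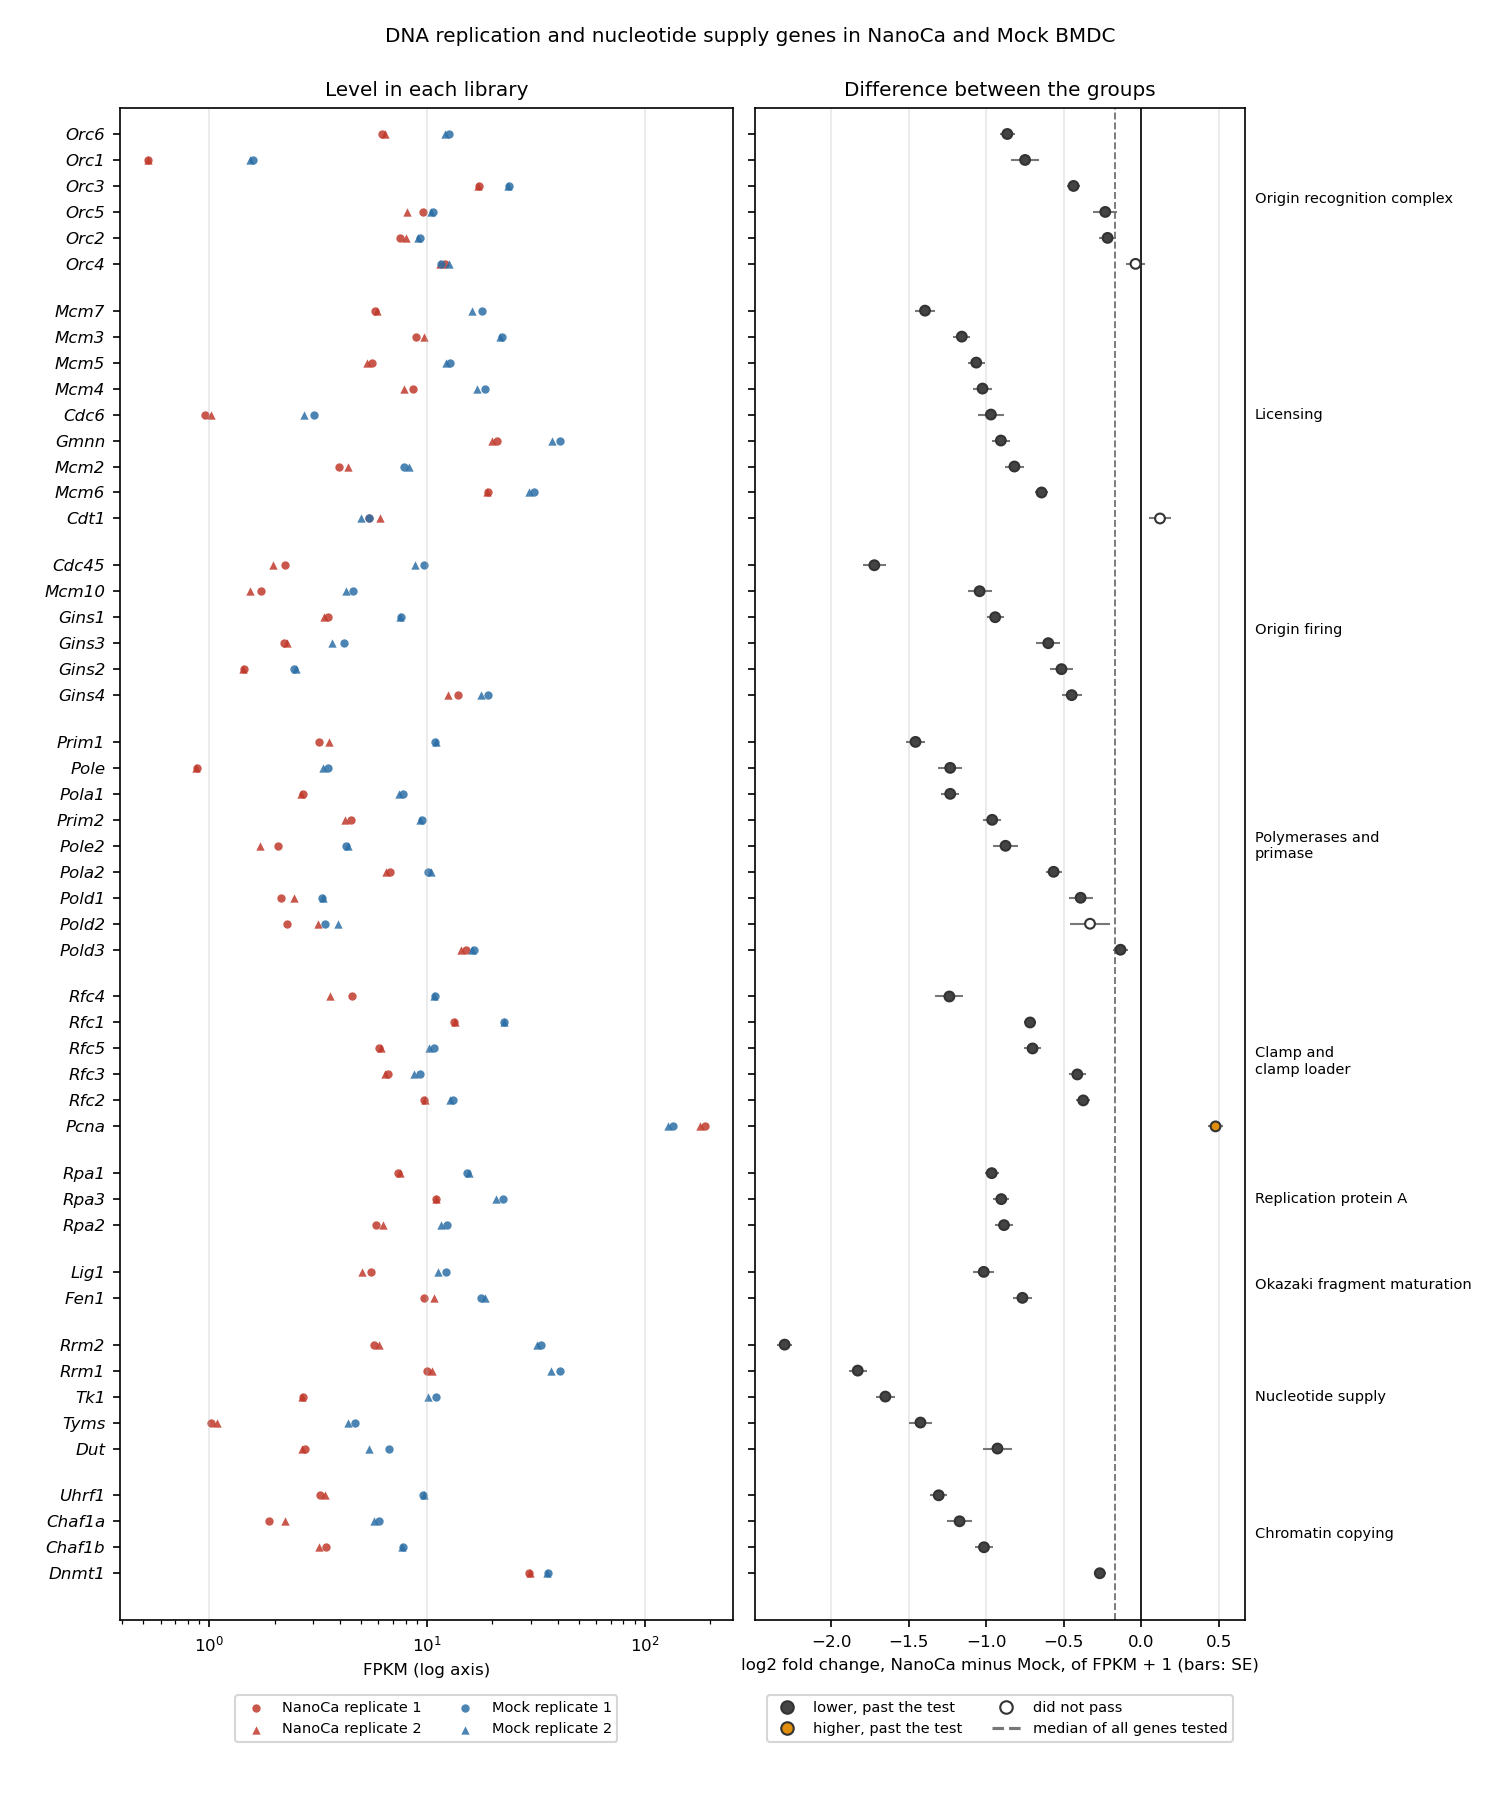
Left, FPKM (log axis) of the 50 replication genes in each of the 2 NanoCa and 2 Mock libraries, grouped by role; right, the log2 fold change, NanoCa minus Mock, of FPKM + 1, with its SE as bars and the median of all genes as a dashed line. Rrm2 lies farthest to the left at -2.30, and Pcna alone is called higher, at 0.48.

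The genes of nucleotide supply had the lowest median level against Mock of the role groups. All 5 fell, with a median of 25.4% of Mock, beside 49.7% of all genes tested called lower and a median of 87.3%. Rrm2, the regulated small subunit of ribonucleotide reductase, which makes deoxynucleotides out of ribonucleotides, had 5.74 and 6.02 FPKM in NanoCa libraries, against 33.6 and 32.2 FPKM in Mock libraries. Both NanoCa libraries lay far below both Mock libraries, at 17.9% of the Mock mean, and the fold change was the largest fall of the 50 (log2 fold change -2.30, SE 0.049, limma adjusted p = 1.06e-06). Among all 11116 genes, it ranked 66 counted from the largest fall.

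Rrm1, the large catalytic subunit of the same enzyme, had 10.0 and 10.5 FPKM in NanoCa libraries, against 40.8 and 37.3 FPKM in Mock libraries (log2 fold change -1.83, SE 0.057, limma adjusted p = 2.8e-06). The groups were again well apart, with Rrm1 at 26.3% of Mock. Tk1, the thymidine kinase of S phase, had 2.69 and 2.68 FPKM in NanoCa, against 11.0 and 10.1 FPKM in Mock (log2 fold change -1.65, limma adjusted p = 4.88e-06). Tyms, thymidylate synthase, had 1.02 and 1.08 FPKM in NanoCa, against 4.67 and 4.34 FPKM in Mock, which rests on 95 and 96 reads in NanoCa and 565 and 455 reads in Mock. Its NanoCa mean was 23.3% of Mock (log2 fold change -1.42, limma adjusted p = 1.77e-05). Dut, which clears dUTP so that uracil stays out of DNA, had 2.76 and 2.68 FPKM in NanoCa, against 6.74 and 5.46 FPKM in Mock, and fell by 0.93 on the log2 scale. For these 5 genes the NanoCa libraries lay close together and below both Mock libraries. Across all genes tested, 58.9% were lower without overlap.

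Among the 9 licensing genes, 8 fell and Cdt1 did not pass, beside 49.7% of all genes tested called lower. Mcm7, a subunit of the replicative helicase, had 5.80 and 5.92 FPKM in NanoCa, against 18.0 and 16.1 FPKM in Mock (log2 fold change -1.39, SE 0.063, limma adjusted p = 9.48e-06). Mcm3, another subunit, had 8.90 and 9.70 FPKM in NanoCa, against 22.2 and 21.7 FPKM in Mock. Mcm5 had 5.63 and 5.32 FPKM in NanoCa, against 12.8 and 12.2 FPKM in Mock. In these 3 subunits both NanoCa libraries lay under 50% of the Mock mean. Mcm4 had 8.61 and 7.87 FPKM in NanoCa, against 18.5 and 17.0 FPKM in Mock. Mcm2 had 3.96 and 4.33 FPKM in NanoCa, against 7.85 and 8.28 FPKM in Mock. Mcm6, the most abundant of the 6 subunits, had 19.1 and 19.0 FPKM in NanoCa, against 31.0 and 29.6 FPKM in Mock. All 6 Mcm2-7 subunits, which form the helicase ring together, fell without overlap between groups, Mcm7 to 34.4% of Mock and Mcm6 to 62.8%. Over all genes tested, 58.9% were lower without overlap. Per length, the means of the 6 spanned a 4.60-fold range in NanoCa, with Mcm2 lowest at 4.15 FPKM and Mcm6 highest at 19.1 FPKM. In Mock the same 2 genes bounded a 3.76-fold range, at 8.07 and 30.3 FPKM.

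The loaders and their inhibitor did not move together. Cdc6, the ATPase that recruits the helicase to ORC, had 0.958 and 1.02 FPKM in NanoCa, against 3.05 and 2.74 FPKM in Mock (log2 fold change -0.97, limma adjusted p = 0.000128). Its NanoCa level was 34.1% of Mock, with both NanoCa libraries below both Mock libraries. Cdt1, the partner that brings in the helicase, had 5.41 and 6.09 FPKM in NanoCa, against 5.41 and 4.99 FPKM in Mock. The lower NanoCa library and the higher Mock library were level to 3 digits, and the difference did not pass (log2 fold change 0.12, 95% interval -0.058 to 0.30, limma adjusted p = 0.183). With median-of-ratios scaling it passed as higher in NanoCa, at 0.28 (limma adjusted p = 0.0136). Gmnn, geminin, which binds Cdt1 and blocks its use after S phase begins, had 21.0 and 19.9 FPKM in NanoCa, against 40.9 and 37.4 FPKM in Mock, and fell by 0.91 on the log2 scale (limma adjusted p = 3.42e-05). Within libraries, the ratio of Cdt1 to Gmnn in FPKM was 0.258 and 0.306 in NanoCa, against 0.132 and 0.133 in Mock. This ratio and the other ratios between partner genes were chosen after the values were seen. With 2 libraries per group, the smallest p that an exact permutation test (two-sided) allows is 0.333, and each ratio given here reached it.

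Promoters were looked at because genes of this group are textbook E2F targets. RefSeq promoters (GRCm38.p6, 250 bases before to 50 after the gene's start) were in the table for 42 of the 50 genes, and Rfc2, Pole, Gins1, Gmnn, Gins2, Prim2, Gins4 and Mcm4 were not in it. An E2F word was defined as TTT, then 2 bases each C or G, then CGC (TTTCCCGC, TTTCGCGC, TTTGGCGC or TTTGCCGC) on either strand. It stood in 17 of 42 member genes (40.5%), beside 419 of 8521 tested genes with a promoter in the table (4.92%), 704 of 27025 genes in it (2.61%) and 744 of 32851 promoters of the same length (2.26%). CCAAT, the letters of the NF-Y site, on either strand stood in 26 of 42 (61.9%). It stood in 43.0% of tested genes, 41.1% of genes with a promoter and 37.4% of all promoters. The CHR word of the DREAM complex, TTTGAA or TTCGAA on either strand, stood in 8 of 42 (19.0%), beside 17.1%, 21.7% and 19.2%. Shares of genes count a word in any promoter of a gene, and shares of promoters count each promoter singly. In the member promoters 24 E2F words were found, of which 2 pairs overlap on opposite strands and 1 word shares bases with a CCAAT word. None of the promoters of the 6 genes with the largest fold changes downward, Rrm2, Rrm1, Cdc45, Tk1, Prim1 and Tyms, held an E2F word, which says only that these letters are not in this window. A match is a run of letters, not a measured binding site.

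**Figure D2:**
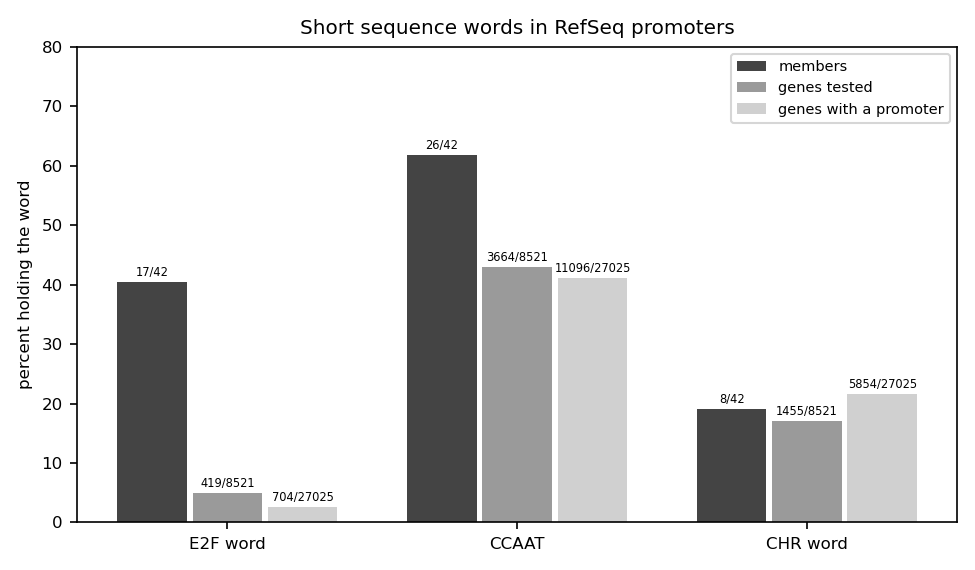
Percent of genes (vertical axis) whose RefSeq promoter of 300 bases holds an E2F, a CCAAT or a CHR word, for the 42 replication genes, the 8521 tested genes and the 27025 genes with a promoter in the table, with numbers of genes above the bars. The E2F bar of the replication genes reaches 40.5%, against 4.92% of tested genes, while the CHR bars lie close together.

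The 250 bases before the start are printed for 4 licensing genes that fell. These were chosen for holding an E2F word there, after the matches were seen. Pcna and Cdt1 are printed as a pair that did not fall, chosen by fold change. The printed promoters therefore cannot show whether the word goes with a fall. An E2F word stood in 16 of the 38 members that fell and have a promoter in the table, and in 1 of 4 that did not fall. Of the 42 members, 11 held a word before the start. Sequences read 5′ to 3′ on the gene's strand, and capitals mark the E2F words. Mcm7 is the minus strand of chr5:138171884-138172133, Mcm5 the plus strand of chr8:75109259-75109508, Cdc6 the plus strand of chr11:98907901-98908150, Mcm6 the minus strand of chr1:128359706-128359955, Pcna the minus strand of chr2:132253181-132253430 and Cdt1 the plus strand of chr8:122567765-122568014, all in GRCm38.p6.
Mcm7: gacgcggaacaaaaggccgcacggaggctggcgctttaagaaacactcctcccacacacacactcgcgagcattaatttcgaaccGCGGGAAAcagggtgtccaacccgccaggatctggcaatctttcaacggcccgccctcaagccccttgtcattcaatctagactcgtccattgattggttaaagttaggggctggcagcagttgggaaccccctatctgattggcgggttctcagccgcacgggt
Mcm5: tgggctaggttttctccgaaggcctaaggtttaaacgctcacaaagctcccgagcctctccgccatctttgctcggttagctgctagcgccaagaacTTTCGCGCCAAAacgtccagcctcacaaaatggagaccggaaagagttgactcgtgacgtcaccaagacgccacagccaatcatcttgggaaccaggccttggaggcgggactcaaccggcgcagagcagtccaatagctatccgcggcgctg
Cdc6: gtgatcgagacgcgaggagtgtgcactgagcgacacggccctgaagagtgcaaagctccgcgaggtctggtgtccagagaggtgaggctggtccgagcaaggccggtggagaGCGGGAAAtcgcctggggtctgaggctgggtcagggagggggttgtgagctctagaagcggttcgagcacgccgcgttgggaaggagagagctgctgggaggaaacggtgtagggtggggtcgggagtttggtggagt
Mcm6: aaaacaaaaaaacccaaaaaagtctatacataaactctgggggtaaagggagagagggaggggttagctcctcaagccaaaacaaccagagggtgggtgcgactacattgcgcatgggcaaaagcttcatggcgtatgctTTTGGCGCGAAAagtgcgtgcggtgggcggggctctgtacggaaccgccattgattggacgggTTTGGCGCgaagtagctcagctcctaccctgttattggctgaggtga
Pcna: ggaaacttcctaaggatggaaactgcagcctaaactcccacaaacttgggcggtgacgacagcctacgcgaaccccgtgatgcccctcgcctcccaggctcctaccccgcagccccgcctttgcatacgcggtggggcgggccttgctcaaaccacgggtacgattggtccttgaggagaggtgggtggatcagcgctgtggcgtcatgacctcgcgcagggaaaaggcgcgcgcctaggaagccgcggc
Cdt1: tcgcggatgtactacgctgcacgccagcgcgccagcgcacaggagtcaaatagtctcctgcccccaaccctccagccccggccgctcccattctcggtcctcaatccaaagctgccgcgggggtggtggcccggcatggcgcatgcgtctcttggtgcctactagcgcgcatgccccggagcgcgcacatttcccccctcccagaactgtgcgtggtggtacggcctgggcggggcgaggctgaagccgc
In Mcm5 and Mcm6 overlapping words on opposite strands make up the longer run of capitals, at bases -153 to -142 in Mcm5 and -110 to -99 in Mcm6, counted back from the start. Mcm6 has another at -47 to -40, Mcm7 has its capitals at -165 to -158 and Cdc6 at -138 to -131. The Pcna window of 300 bases held none, and the single word of Cdt1 lay after the start, at bases 33 to 40.

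All 6 origin firing genes fell, beside 49.7% of all genes tested called lower. Cdc45, which joins the loaded helicase and makes it active, had 2.24 and 1.97 FPKM in NanoCa, against 9.67 and 8.79 FPKM in Mock. Its NanoCa level was 22.8% of Mock, with both NanoCa libraries far below both Mock libraries (log2 fold change -1.72, SE 0.076, limma adjusted p = 8.87e-06). Mcm10, an origin firing factor that binds the helicase, was at 37.0% of Mock (log2 fold change -1.04). The 4 GINS subunits, which sit with Cdc45 on the helicase, lay between 45.7% of Mock for Gins1 and 71.9% for Gins4, with Gins3 at 57.2% and Gins2 at 58.0%. Gins4 had 13.9 and 12.5 FPKM in NanoCa, against 19.1 and 17.7 FPKM in Mock, and was the GINS subunit with the most FPKM in both groups. Gins2 shares 67.3% of its exon bases with the opposite strand of Gse1, and whether the authors counted by strand is not given in the sources used here, so its level is uncertain.

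The origin recognition complex split. Orc6, which helps ORC load the helicase, had 6.26 and 6.43 FPKM in NanoCa, against 12.6 and 12.1 FPKM in Mock, and fell by 0.86 on the log2 scale (SE 0.050, limma adjusted p = 2.62e-05). Orc1, the large ATPase subunit, had 0.526 and 0.524 FPKM in NanoCa, against 1.59 and 1.54 FPKM in Mock, at 33.6% of Mock (log2 fold change -0.75, limma adjusted p = 0.00051). Orc4, another subunit of the complex, had 12.2 and 11.5 FPKM in NanoCa, against 11.6 and 12.7 FPKM in Mock. The groups overlapped for Orc4 alone among the 50, and it did not pass (log2 fold change -0.037, 95% interval -0.18 to 0.11, limma adjusted p = 0.597). Orc3 fell to 72.8% of Mock. Orc2 shares 29.8% of its exon bases with the opposite strand of Nif3l1, so its level carries the same uncertainty as that of Gins2. Orc2 and Orc5 were called lower at 84.6% and 84.0% of Mock, changes of -0.045 and -0.060 relative to the median of all genes, and neither passed with median-of-ratios scaling. Without NanoCa replicate 2, and without Mock replicate 1, Orc5 also did not pass, and Orc2 did not pass without NanoCa replicate 1 or Mock replicate 1.

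Among the 9 polymerase and primase genes, 8 fell and Pold2 did not pass, beside 49.7% of all genes tested called lower. Prim1, the catalytic subunit of primase, which lays the RNA primers, had 3.19 and 3.58 FPKM in NanoCa, against 10.9 and 11.1 FPKM in Mock. The groups lay well apart, with Prim1 at 30.7% of Mock (log2 fold change -1.46, SE 0.063, limma adjusted p = 8.49e-06). Pole, the catalytic subunit of the leading-strand polymerase epsilon, had 0.884 and 0.876 FPKM in NanoCa, against 3.51 and 3.33 FPKM in Mock (log2 fold change -1.23, limma adjusted p = 3.36e-05). Pola1, the catalytic subunit of polymerase alpha and a gene of the X chromosome, had 2.71 and 2.63 FPKM in NanoCa, against 7.82 and 7.43 FPKM in Mock. Pola1 was thus at 35.0% of Mock, with no overlap. Pola2, the accessory subunit of polymerase alpha, fell to 64.4% of Mock, Prim2, the large primase subunit, to 46.2% and Pole2, the second subunit of polymerase epsilon, to 44.1%.

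The subunits of polymerase delta, which copies the lagging strand, were closer to Mock. Pold1, its catalytic subunit, was at 69.3% of Mock (log2 fold change -0.39, limma adjusted p = 0.00454). Pold2, an accessory subunit, had 2.28 and 3.17 FPKM in NanoCa, against 3.40 and 3.92 FPKM in Mock, with the NanoCa libraries far apart (log2 fold change -0.33, 95% interval -0.64 to -0.018, limma adjusted p = 0.0571). Pold2 passed as lower without NanoCa replicate 2, at -0.50 (limma adjusted p = 0.00847), and without Mock replicate 1, at -0.41 (limma adjusted p = 0.0329). Pold3, another accessory subunit, had 15.1 and 14.4 FPKM in NanoCa, against 16.5 and 16.1 FPKM in Mock. It was called lower by 0.13 on the log2 scale (limma adjusted p = 0.0398) but lay 0.038 above the median of all genes, and with median-of-ratios scaling its direction turned, to 0.043 (limma adjusted p = 0.497). The Pold3 call was also lost without NanoCa replicate 2, without Mock replicate 1 and without Mock replicate 2.

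The clamp and its loader moved in opposite directions. Pcna had 189 and 180 FPKM in NanoCa, against 136 and 129 FPKM in Mock, and both NanoCa libraries were above both Mock libraries. Its level was 140% of Mock (log2 fold change 0.48, SE 0.046, limma adjusted p = 0.000207), and it stayed higher under every alternative run, at 0.31 to 0.67. Rfc4, a small subunit of the replication factor C complex that opens the clamp and sets it on DNA, had 4.51 and 3.61 FPKM in NanoCa, against 10.9 and 10.8 FPKM in Mock (log2 fold change -1.24, limma adjusted p = 6.5e-05). Rfc1, the large subunit, was at 59.1% of Mock (log2 fold change -0.72). The other 3 loader subunits also fell, Rfc5 to 57.8%, Rfc3 to 72.4% and Rfc2 to 75.4% of Mock. Of all genes tested, 49.7% were called lower. Rfc4 shares 12.7% of its exon bases with the opposite strand of Eif4a2, which had means of 127 FPKM in NanoCa and 119 FPKM in Mock. Rfc2 shares 15.1% with Lat2 and Rfc5 shares 10.7% with Wsb2. The levels of Rfc4, Rfc2 and Rfc5 thus carry the same uncertainty as that of Gins2. Further members also share exon bases with other genes, among them Orc6 and Cdc45. Orc6 shares 6.93% with the opposite strand of Vps35, which had means of 92.3 FPKM in NanoCa and 123 FPKM in Mock. Cdc45 shares 5.96% with the opposite strand of Ufd1, which had means of 22.3 FPKM in NanoCa and 23.0 FPKM in Mock. The levels of Orc6 and Cdc45 carry that uncertainty too. The ratio of Pcna to Rfc1 in FPKM was 14.2 and 13.4 in NanoCa libraries, against 5.98 and 5.69 in Mock libraries. The pseudogene Pcna-ps2 had under 1 FPKM in every library.

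Pcna was the most abundant of the 50 genes per length and so weighs on their sum. The summed level of the members was 527 and 515 FPKM in NanoCa, against 785 and 753 FPKM in Mock. Without Pcna the sum was 338 and 335 FPKM in NanoCa, against 650 and 624 FPKM in Mock. Pcna made up 35.9% and 34.9% of the members' sum in NanoCa, against 17.3% and 17.1% in Mock. Across the 50 genes, the Mock level and the log2 fold change were not ordered alike (Spearman rho 0.0088 over genes, which share libraries and are not independent).

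**Figure D3:**
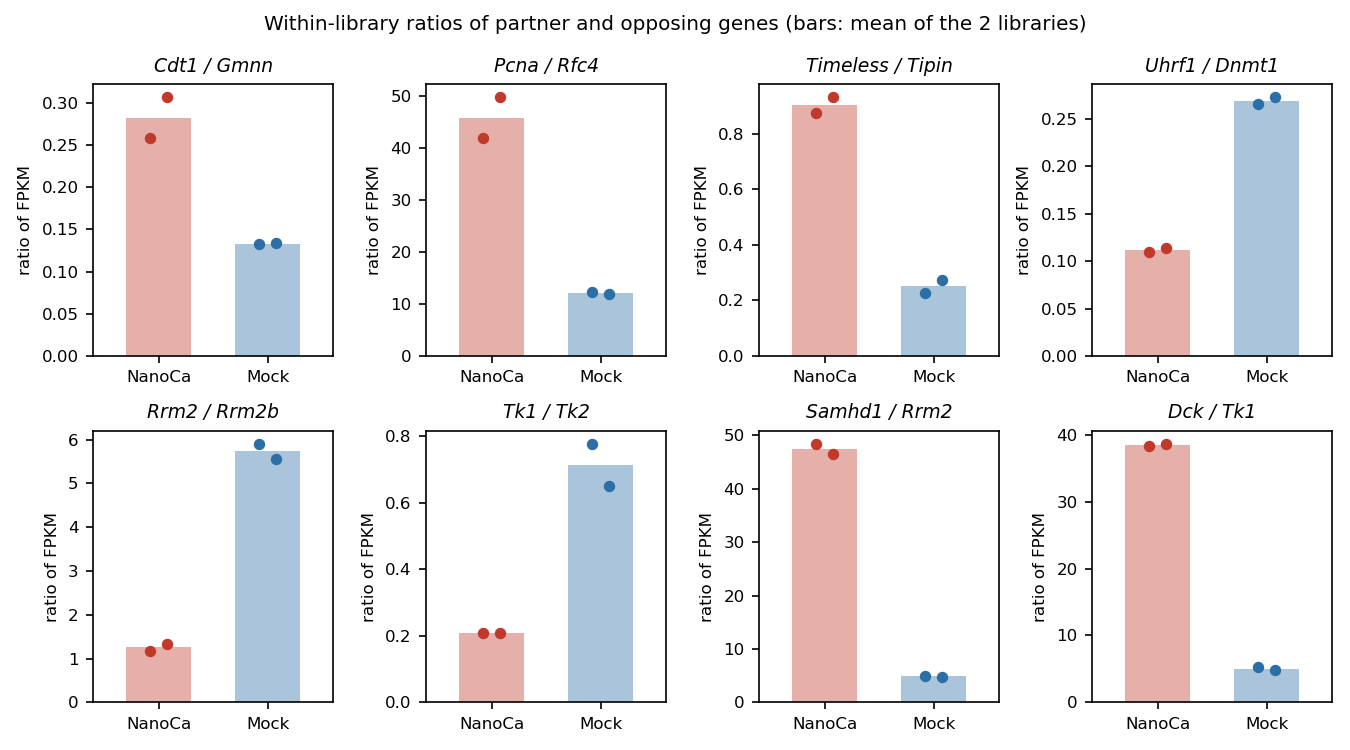
Ratios of FPKM between partner or opposing genes (vertical axes, from 0), with a point per library and bars at the mean of the 2 NanoCa libraries, left, and the 2 Mock libraries, right. The ratios of Cdt1 to Gmnn and of Pcna to Rfc4 were higher in both NanoCa libraries than in either Mock library, and those of Uhrf1 to Dnmt1 and of Rrm2 to Rrm2b were lower.

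The 3 subunits of replication protein A, which coats single-stranded DNA, fell to nearly the same share. Rpa1, the large DNA-binding subunit, had 7.39 and 7.51 FPKM in NanoCa, against 15.3 and 15.6 FPKM in Mock, at 48.1% of Mock (log2 fold change -0.96, limma adjusted p = 1.14e-05). Rpa2, which is phosphorylated under replication stress, had 5.86 and 6.27 FPKM in NanoCa, against 12.4 and 11.7 FPKM in Mock. The groups did not overlap, with Rpa2 at 50.3% of Mock and Rpa3 at 51.3%. Lig1, the ligase that joins Okazaki fragments of the lagging strand, had 5.53 and 5.06 FPKM in NanoCa, against 12.2 and 11.2 FPKM in Mock, and fell by 1.02 on the log2 scale. Fen1, the nuclease that trims the flaps of those fragments, had 9.71 and 10.7 FPKM in NanoCa, against 17.7 and 18.5 FPKM in Mock, at 56.6% of Mock. For both genes the groups did not overlap. Of all genes tested, 49.7% were called lower and 58.9% were lower without overlap.

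The 4 genes that copy chromatin fell, by unequal amounts, beside 49.7% of all genes tested called lower. Uhrf1, which reads hemimethylated DNA behind the fork and brings in Dnmt1, had 3.22 and 3.41 FPKM in NanoCa, against 9.64 and 9.71 FPKM in Mock (log2 fold change -1.31, SE 0.056, limma adjusted p = 7.91e-06). Dnmt1, the maintenance DNA methyltransferase, had 29.4 and 30.0 FPKM in NanoCa, against 36.2 and 35.6 FPKM in Mock, at 82.6% of Mock. The change of Dnmt1 was -0.27 (SE 0.038, limma adjusted p = 0.00114), or -0.096 relative to the median of all genes, and it did not pass with median-of-ratios scaling (limma adjusted p = 0.129). The ratio of Uhrf1 to Dnmt1 in FPKM was 0.110 and 0.114 in NanoCa, against 0.266 and 0.273 in Mock. Chaf1a and Chaf1b, subunits of the CAF-1 chaperone that places histones on new DNA, were at 35.0% and 43.0% of Mock. Chaf1a shares 52.5% of its exon bases with the opposite strand of Ubxn6, so its level carries the same uncertainty as that of Gins2.

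Other genes of the pathway, from lists that do not include the 50, were read in the same fit, and their counts stand beside the 49.7% of all genes tested that were called lower and the 21.7% called higher (32.8% and 32.9% with median-of-ratios scaling). Of 34 other replication factors 32 were tested, 27 fell, 2 rose and 3 did not pass (Asf1a, Top1 and Mcm9), with a median log2 fold change of -0.81. The largest falls on the log2(FPKM + 1) scale were those of Top2a, the topoisomerase that untangles sister chromatids, at 12.6% of Mock (log2 fold change -2.86), Asf1b, a histone chaperone, at 21.4% (-2.01), Clspn, claspin, a fork and checkpoint mediator, at 21.2% (-1.75), and Wdhd1, which links the helicase to polymerase alpha, at 29.7% (-1.50). By percent of Mock, Ticrr, an origin firing factor with under 2 FPKM in every library, was lower than the last 3, at 16.5% (-1.11). Timeless, a fork protection factor, was among the 2 that rose, with 4.99 and 5.12 FPKM in NanoCa, against 2.92 and 3.17 FPKM in Mock (log2 fold change 0.58, limma adjusted p = 0.000377). Its partner gene Tipin fell to 45.8% of Mock, and the ratio of Timeless to Tipin in FPKM was 0.875 and 0.930 in NanoCa, against 0.227 and 0.273 in Mock. The other gene that rose was Pole4, a small histone-fold subunit of polymerase epsilon, at 123% of Mock (0.29).

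Of 14 genes of deoxynucleotide handling outside the 50, 12 were tested, and 6 fell, 4 rose and 2 did not pass (Dctd and Nme1), with a median of -0.11. The share that fell is near the 49.7% of all genes tested. Cmpk2, a mitochondrial nucleotide kinase that is induced by interferon, had 240 and 227 FPKM in NanoCa, against 10.1 and 7.50 FPKM in Mock (log2 fold change 4.59). Samhd1, which breaks deoxynucleotides down and restricts viruses in myeloid cells, had 278 and 280 FPKM in NanoCa, against 167 and 155 FPKM in Mock, at 173% (0.79). Dck, the deoxycytidine kinase of the salvage pathway, had 103 and 104 FPKM in NanoCa, against 57.6 and 49.7 FPKM in Mock, at 193% (0.94). All 3 were higher in both NanoCa libraries than in either Mock library, while Rrm1, Rrm2, Tk1 and Tyms were lower. Dtymk, thymidylate kinase, fell the most, by 0.77 on the log2 scale, and Tk2, the mitochondrial thymidine kinase, fell by 0.19. Rrm2b, the reductase subunit used outside S phase, fell by 0.24 on the log2 scale, and the ratio of Rrm2 to Rrm2b in FPKM was 1.18 and 1.33 in NanoCa, against 5.90 and 5.57 in Mock. The ratio of Dck to Tk1 in FPKM was 38.3 and 38.6 in NanoCa, against 5.23 and 4.90 in Mock. Among these genes 2 were called lower with median-of-ratios scaling, and 3 without NanoCa replicate 2 or without Mock replicate 2.

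Of the 17 genes that make purines and pyrimidines from scratch, 13 fell, 1 rose and 3 did not pass (Ctps, Adss2 and Adsl), beside 49.7% of all genes lower and 21.7% higher, with a median of -0.41. Paics, an enzyme of purine synthesis, was at 48.7% of Mock (log2 fold change -1.02), and next were Prps1 (-0.77), Prps2 (-0.76) and Atic (-0.73). Prps1 and Prps2, which make the ribose donor, are genes of the X chromosome. Impdh1, an enzyme of guanine nucleotide synthesis, was at 150% (0.52, limma adjusted p = 0.00047). Among 18 genes of the E2F, RB and DREAM regulators, 14 fell and 4 did not pass (E2f3, E2f4, E2f5 and Lin37), beside the same 49.7%, with a median of -0.68. With median-of-ratios scaling those 4 were called higher, at 0.28 to 0.35. E2f2, an activator of the family, was at 25.6% of Mock (-1.69), and the repressors E2f7 and E2f8 were at 19.4% (-1.19) and 32.1% (-1.42). Tfdp2, a dimer partner of E2F factors, was at 33.9% (-1.06), while the activator E2f1 was at 83.2% (-0.23) and did not pass with median-of-ratios scaling (-0.069, limma adjusted p = 0.309). Among 10 replication checkpoint genes, 8 fell and 2 did not pass (Rad9a and Atrip), again beside 49.7%, with a median of -0.53, and Chek1, the effector kinase of that checkpoint, was at 35.0% of Mock (-0.89), followed by Etaa1 (-0.66), Wee1 (-0.62) and Hus1 (-0.60).

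**Figure D4:**
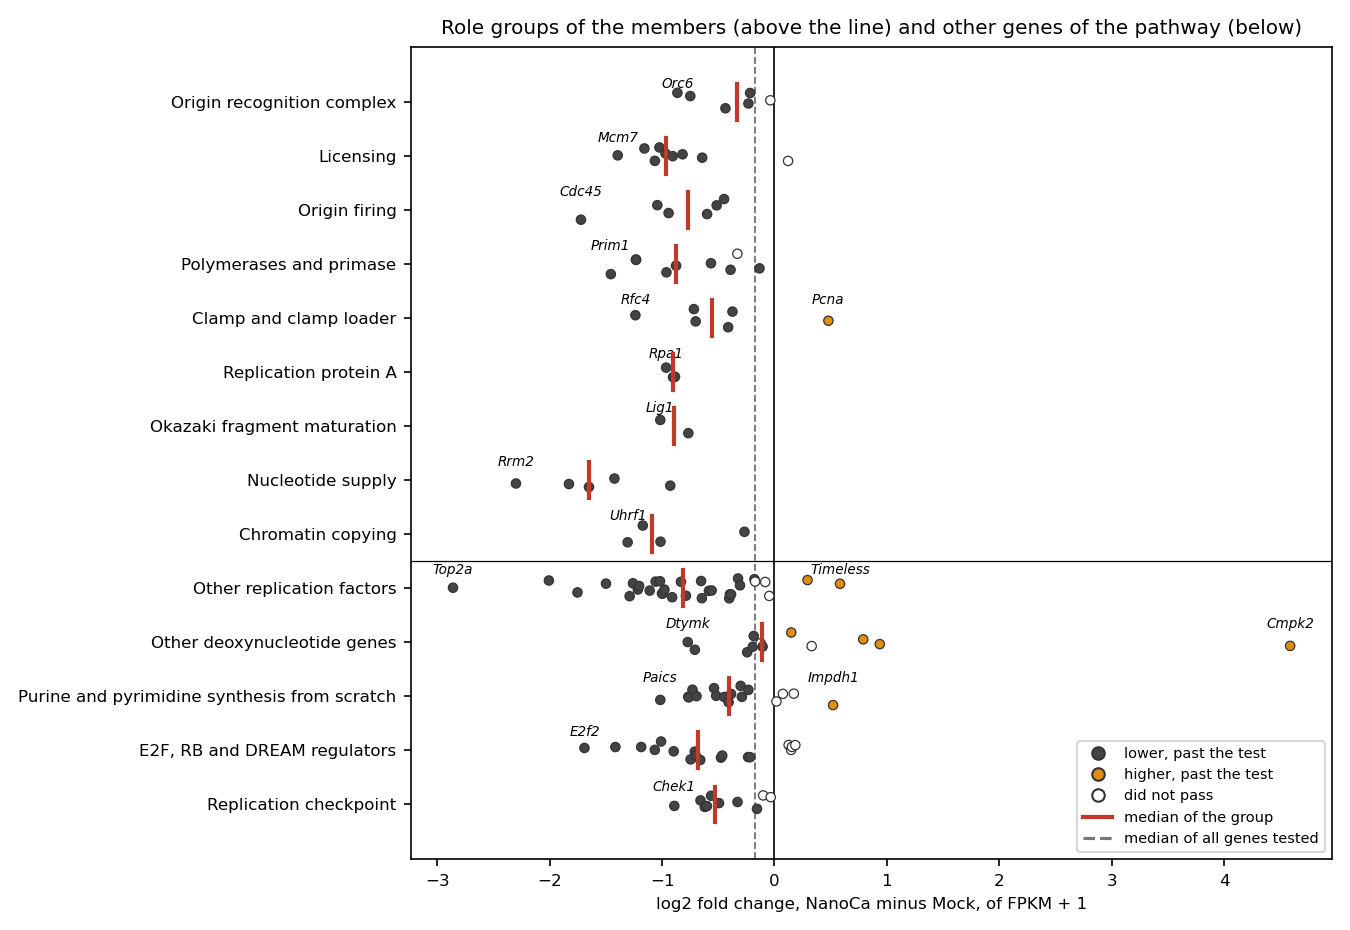
Log2 fold change, NanoCa minus Mock (horizontal axis), of each tested gene, with the role groups of the 50 replication genes above the line, the 5 other lists below it and the median of each marked. Nucleotide supply has a median of -1.65 and the deoxynucleotide genes outside the 50 a median of -0.11, with Cmpk2 at 4.59 the farthest to the right.

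Markers of other cells that can be found in marrow cultures also differed between the groups, lower in NanoCa for granulocyte, mast cell and most progenitor markers and higher for most macrophage and monocyte markers, and their part in the result was not tested. Counts of markers without overlap stand beside 58.9% lower and 27.4% higher over all genes tested. The marker counts also include genes under the filter of a mean of 1 FPKM, which those shares leave out. Tested were 3 of 5 early granulocyte, 5 of 8 neutrophil and 3 of 6 mast cell and basophil markers. So were 3 of 5 stem and progenitor, 4 of 8 dendritic and all 8 macrophage and monocyte markers. Some counts rest on few reads, such as Fcer1a with 1 and 3 reads in NanoCa, against 18 and 27 reads in Mock. All 5 early granulocyte markers were lower in both NanoCa libraries than in either Mock library, with sums of 1.17 and 0.640 FPKM in NanoCa, against 4.46 and 13.2 FPKM in Mock. Neutrophil markers were lower without overlap for 6 of 8 genes, with sums of 219 and 227 FPKM in NanoCa, against 980 and 1140 FPKM in Mock. Most of that sum was Mmp8, with 168 and 165 FPKM in NanoCa, against 755 and 730 FPKM in Mock, while Ly6g and Retnlg had at most 4 reads in any library. Mast cell and basophil markers were lower for 5 of 6 genes, with sums of 1.74 and 1.86 FPKM in NanoCa, against 10.3 and 18.1 FPKM in Mock, and Mcpt4 was at 0 in all 4 libraries. Stem and progenitor markers were lower for 4 of 5 genes, with Gata2 at 114% of Mock and not past the test, with sums of 3.42 and 3.47 FPKM in NanoCa, against 7.44 and 10.0 FPKM in Mock, and Flt3 stands in both this list and the dendritic list. Macrophage and monocyte markers were higher for 6 of 8 genes and lower for Mertk and for Ccr2, at 16.3% of Mock, with sums of 2927 and 3082 FPKM in NanoCa, against 2066 and 2086 FPKM in Mock. Dendritic markers were lower for 6 of 8 genes and higher for Ccr7, at 165% of Mock, with sums of 1216 and 1292 FPKM in NanoCa, against 1924 and 1904 FPKM in Mock. Most of the dendritic sum was Cd74, with 777 and 821 FPKM in NanoCa, against 1253 and 1240 FPKM in Mock. H2-Ab1 came next, with 351 and 383 FPKM in NanoCa, against 542 and 535 FPKM in Mock. Erythroid markers summed to 0.274 and 0.317 FPKM in NanoCa, against 0.996 and 1.69 FPKM in Mock, and B cell, T cell and NK cell markers summed to under 0.1 FPKM in every library.

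**Figure D5:**
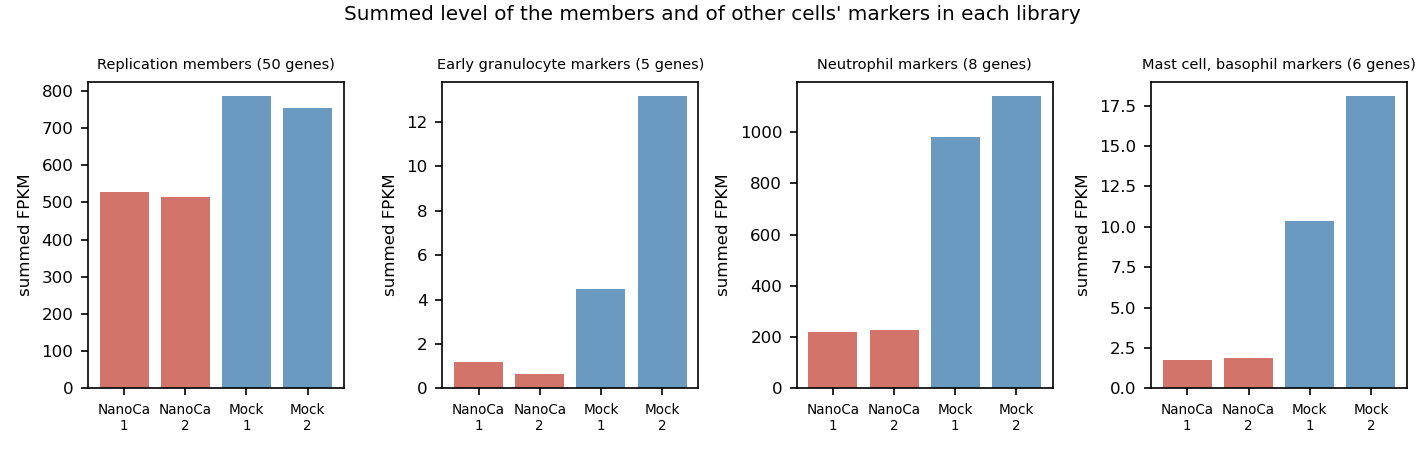
Summed FPKM (vertical axis, from 0) of the 50 replication genes and of early granulocyte, neutrophil and mast cell or basophil markers in each library, with NanoCa left of Mock. The replication genes sum to 527 and 515 FPKM in NanoCa libraries, against 785 and 753 FPKM in Mock libraries. The 3 marker sums drawn are lower in both NanoCa libraries. Of the lists not drawn, macrophage and monocyte markers summed higher, at 2927 and 3082 FPKM in NanoCa, against 2066 and 2086 FPKM in Mock. Dendritic, stem and progenitor and erythroid markers, also not drawn, summed lower in NanoCa. The part of any of these cells in the result was not tested.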

How the data were processed

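The deposited table gives FPKM per gene, computed by the authors. Per the submitters' processing notes, reads were placed on GRCm39. Per the labels' protocols, libraries were made with a SMARTER mRNA kit. The sources used here name no aligner, counter or strand setting. FPKM steps gave whole reads for 23928 of 23929 genes (tolerance 1e-06), and a single read per kilobase of gene equalled 0.0321 to 0.0439 FPKM. Replicate 3 equalled 1.0011 (NanoCa) and 1.001876 (Mock) times the mean of the other columns, so 2 libraries per group were tested in place of the planned 3.

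From the deposited FPKM, log2(FPKM + 1) was tested for genes with a mean of at least 1 FPKM with limma 3.58.1 (R 4.3.3; lmFit, eBayes with a trend), two-sided, with Benjamini-Hochberg adjustment. The script was first tested on simulated data. Alternatives were other pseudocounts, filters, scalings and voom on recovered reads, the 6 columns, a replicate block and leaving out each library. Gene models for overlaps (GENCODE) and promoters (RefSeq) are of GRCm38. Members and lists were chosen with earlier results of these data known. Named genes were, per role group, the largest fall and the largest rise or smallest fall, with Pcna, Mcm2 to Mcm7, Cdc6, Cdt1, Gmnn, Rrm1, Rrm2, Tyms, Tk1 and Dnmt1; per other list, the 4 largest falls and rises past the threshold, of which some are not reported here. Further genes, such as E2f1, partner ratios and printed promoters were chosen after values were seen; the rule would have printed promoters of the 6 largest falls that hold an E2F word, and none does.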

Additional observations from a re-analysis of the deposited data

How the results depend on the processing

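Pcna stayed higher and the members' median stayed below 0 under all alternatives run. The 46 members called lower became 44 with no filter, 35 of 38 tested at a mean of 5 FPKM, 42 with median-of-ratios scaling, 42 with quantile scaling, 47 with voom on recovered reads, 47 with all 6 columns, and 43 to 45 without 1 library. A lone library in a group was then assumed to vary like the other group's. The cause of these differences was not tested.

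The members' median log2 fold change was -1.01 and -1.02 with pseudocounts of 0.1 and 0.01, -0.73 and -0.71 with median-of-ratios and quantile scaling, -1.02 with voom, and -0.95 to -0.85 without 1 library. Higher members numbered 2 with median-of-ratios scaling, quantile scaling and all 6 columns, the other being Cdt1. Without 1 library the genes called lower numbered 4869 to 5140 and those called higher 2107 to 2324. Median-of-ratios scaling called 3651 lower and 3662 higher. Further member calls were lost for Pold1 with quantile scaling (adjusted p = 0.102) and for Orc5 and Pold3 with no filter. Pold2 also passed as lower with voom (adjusted p = 0.0222), all 6 columns (adjusted p = 0.015) and the replicate block (adjusted p = 0.0118). E2f1 did not pass with quantile scaling (-0.036, adjusted p = 0.582).

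At a mean of 5 FPKM, fewer genes were tested, and lower calls were 15 of the other replication factors, with 1 higher, 8 of the purine and pyrimidine genes and 1 of the checkpoint genes. Lower calls among the other deoxynucleotide genes were 2 with median-of-ratios and 3 with quantile scaling, and 3 to 5 without 1 library. Higher calls among the purine and pyrimidine genes were 3 with either scaling, 2 with voom and 3 with all 6 columns. Among the E2F, RB and DREAM regulators they were 4 with either scaling and with all 6 columns, and 0 to 2 without 1 library (1 without NanoCa replicate 1, 2 without Mock replicate 2). Quantile scaling called 1 checkpoint gene higher, Atrip, whose direction turned to 0.19 (adjusted p = 0.0453). Median-of-ratios scaling turned the direction of Pold3 to 0.043, Mcmbp to 0.0011, Cmpk1 to 0.079 and Rad17 to 0.019, none of which passed.

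With the replicate number as a block, 47 members were lower, and 2 purine and pyrimidine genes and 2 E2F, RB and DREAM regulators were higher. The labels do not say what a number shares, and with 2 pairs the deviations of same-numbered libraries correlated at 0.133. The fewest reads behind a member were those of Orc1, with 38 and 36 reads in the NanoCa libraries, against 149 and 125 reads in the Mock libraries.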
